A study of Mus musculus with 12 samples.

Results

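The genes described here encode interleukin receptor chains outside the IL-2 receptor: Il7r, Il4ra, Il21r, Il6ra, Il6st, Il27ra, Il10ra, Il18r1, Il1rl1 and Il12rb1. They were chosen by name, and each was represented by its brightest row in the deposited log2 table. Of the 10 genes, 9 had a row with that symbol, out of 19505 genes measured. Il1rl1, which encodes the IL-33 receptor ST2, had no named row and was not analysed here. The samples were regulatory T cells (Tregs) sorted from lymph nodes of single female mice aged 4 to 8 weeks, with 1 array per mouse. There were 6 arrays of NOD.Drak2-/- mice and 6 of NOD mice. NOD is an inbred strain that develops autoimmune diabetes spontaneously, and NOD.Drak2-/- mice lack the kinase Drak2, encoded by Stk17b, on that background. Per the labels the cells were CD4+ CD8- CD25+ CD45RBlo, with sorting antibodies named for CD4, CD8 and CD45RB. No treatment and no tissue-restricted deletion is named.

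Interleukin receptors are built from a chain that binds the cytokine and a chain that it often shares with other receptors. The whole receptors for IL-4, IL-6, IL-7, IL-10, IL-12, IL-21 and IL-27, though not each chain of them, carry Janus kinases and pass the signal to STAT transcription factors. By contrast, the IL-18 and IL-33 receptors belong to the IL-1 receptor family and signal through Myd88. In Tregs these inputs sit beside the IL-2 signal that the cells depend on. Low IL-7 receptor is a common surface mark of Tregs, IL-6 opposes their induction, IL-10 signalling supports their control of inflammation, and IL-33 and IL-18 receptors mark Tregs of tissues.

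No receptor passed the threshold between genotypes, and 3 of the 9 stood out at a weaker one. In a limma fit over all genes, 0 of 9 receptors reached an adjusted p of 0.05, beside 0.0205% of all genes (4 genes). At an unadjusted p under 0.05 there were 3 of 9, or 33.3%, beside 9.43% of all genes. These were Il7r, Il10ra and Il12rb1, and in all 3 NOD.Drak2-/- averaged higher, a direction met at that level by 3.74% of all genes, beside 5.69% in the negative direction. Among genes brighter than background, as all 9 receptors were, 9.24% were at that level, 5.68% positive and 3.56% negative, so the direction that prevails differs between the gene sets. When each array was centred on its median, 7.30% of all genes were positive and 2.72% negative at that level, and 5 of 9 receptors were at it, all positive. Over the 9 receptors the median log2 difference of NOD.Drak2-/- minus NOD was 0.18, with 6 positive and 3 negative values. Over all genes it was -0.02, and over the 8128 genes brighter than the array's background rows it was 0.03. A gene is called brighter than background, or in the background range, by its mean over all 12 arrays. Since the cells were measured in bulk, fewer cells carrying a receptor and less RNA per cell cannot be told apart.

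**Figure D1:**
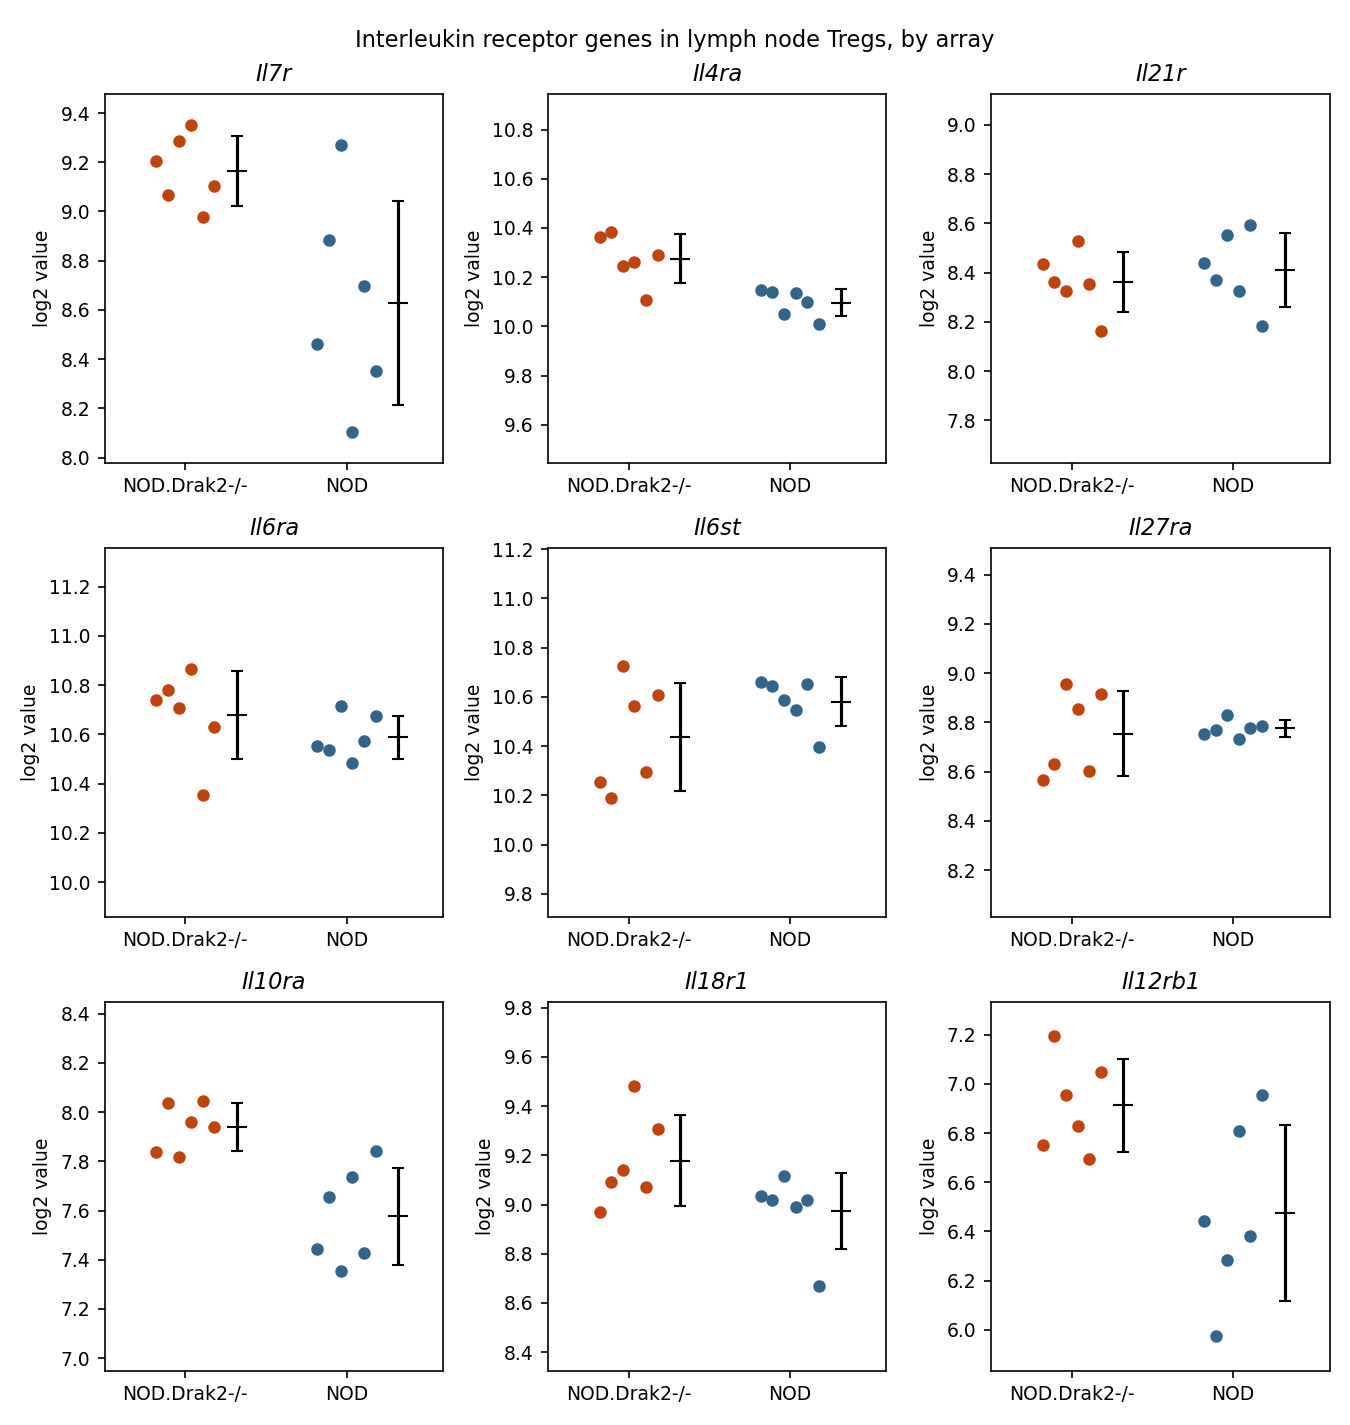
Log2 values of the 9 receptor genes on each array (points), with NOD.Drak2-/- on the left and NOD on the right of every panel, and the mean ± SD of 6 arrays in black. Each vertical axis spans the same width in log2 units, centred on that gene. In Il7r, Il10ra, Il12rb1 and Il4ra all 6 NOD.Drak2-/- arrays lie above the NOD mean, and in Il27ra the NOD arrays lie close together.

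The first receptors are those that pair with the common gamma chain. Il7r encodes the IL-7 receptor alpha chain (CD127), the survival receptor of resting T cells, which also serves the cytokine TSLP. In NOD.Drak2-/- replicates 1, 2, 3, 4, 5 and 7 its log2 value was 9.21, 9.07, 9.29, 9.35, 8.98 and 9.10, and in NOD replicates 1 to 6 it was 8.46, 8.89, 9.27, 8.11, 8.70 and 8.35. The NOD.Drak2-/- arrays were all high and close together, whereas the NOD arrays were spread, with replicate 3 inside the NOD.Drak2-/- range and the other 5 below all NOD.Drak2-/- arrays. The mean was 9.17 ± 0.14 in NOD.Drak2-/- and 8.63 ± 0.41 in NOD (SD, n = 6 each). The log2 difference was 0.54 (95% interval 0.18 to 0.89), or 1.45-fold, with an adjusted p of 0.469 in limma. By two-sided exact permutation over the 12 arrays, p was 0.0152, unadjusted. Resting conventional CD4 T cells carry more IL-7 receptor than Tregs. The mean of 9 of their markers ran from 8.16 to 8.29 in NOD.Drak2-/- and from 8.03 to 8.36 in NOD, and with that mean as a covariate the Il7r difference was 0.53. The markers did not move together: Bach2 (-0.31) and Ccr7 (-0.25) had negative differences, and Actn1 (0.24) and Lef1 (0.18) positive ones. Their mean is therefore a coarse measure of such cells, whose part in the Il7r difference was not tested.

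The Il7r promoter is printed because Il7r had the largest difference of the 9 receptors, and that of Il4ra for comparison, as the next gene of this subfamily. Both are RefSeq sequence of build GRCm38.p6, from 250 bases before to 50 bases after the start of transcription, written 5′ to 3′ along the gene. Il7r lies on the minus strand (chr15:9529827-9530126) and Il4ra on the plus strand (chr7:125552021-125552320). Capitals mark matches to the searched motifs.
Il7r: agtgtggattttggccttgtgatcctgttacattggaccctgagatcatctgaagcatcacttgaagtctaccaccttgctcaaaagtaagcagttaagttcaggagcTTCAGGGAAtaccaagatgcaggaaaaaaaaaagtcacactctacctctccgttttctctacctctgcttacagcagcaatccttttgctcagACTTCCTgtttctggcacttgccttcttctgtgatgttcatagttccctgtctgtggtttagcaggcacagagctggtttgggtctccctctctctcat
Il4ra: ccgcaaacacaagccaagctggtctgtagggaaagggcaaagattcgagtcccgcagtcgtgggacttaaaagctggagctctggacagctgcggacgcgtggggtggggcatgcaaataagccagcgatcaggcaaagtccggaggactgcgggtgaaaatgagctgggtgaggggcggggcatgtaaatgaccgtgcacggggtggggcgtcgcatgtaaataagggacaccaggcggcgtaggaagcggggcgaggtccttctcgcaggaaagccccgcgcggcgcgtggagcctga
Motifs were searched on both strands, and matches were allowed to overlap. They were the STAT site TTCNNNGAA, the ETS site AGGAAGT, the forkhead site TGTTTAC and the interferon-response site of GAAA, any 2 bases and GAAA again. In Il7r the capitals at -142 mark TTCAGGGAA, a match to the STAT site, and those at -49 mark ACTTCCT, the ETS site on the opposite strand. Of 32851 promoters in the table, 8.30% hold the STAT letters and 9.35% the ETS letters. Neither the forkhead letters (3.65% of promoters) nor the interferon-response letters (3.44%) are in the Il7r window, and none of the motifs is in that of Il4ra. The STAT letters are also in a window of Il18r1 and the ETS letters in that of Il6ra, so neither is particular to Il7r among the receptors. Windows of Il21r and Il1rl1 hold the forkhead letters. These are matches of letters and not sites shown to be bound.

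Il4ra encodes the IL-4 receptor alpha chain, which binds IL-4 and, with another chain, IL-13. It had 10.36, 10.38, 10.25, 10.26, 10.11 and 10.29 (log2) in NOD.Drak2-/- replicates 1, 2, 3, 4, 5 and 7, against 10.15, 10.14, 10.05, 10.13, 10.10 and 10.01 in NOD replicates 1 to 6. Replicate 5 of NOD.Drak2-/- lay within the NOD range and the other 5 above all NOD arrays. The difference was small, 0.18 (95% interval -0.02 to 0.37), or 1.13-fold. It had an adjusted p of 0.562 and an unadjusted p of 0.0731 in limma. The exact permutation test gave p = 0.00866. Without NOD.Drak2-/- replicate 5 the difference was 0.21, with an unadjusted limma p of 0.041. The arrays of each genotype were close together (10.27 ± 0.10 in NOD.Drak2-/- and 10.10 ± 0.06 in NOD, SD, n = 6 each), and limma raises such small spreads towards that of other genes. In the ordinary equal-variance model the unadjusted p was 0.0034, and the adjusted p was 0.483.

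Il21r, whose product receives IL-21 from helper T cells, is the neighbour of Il4ra on chromosome 7, with 0 genes between them. It ran from 8.16 to 8.53 with a median of 8.36 in NOD.Drak2-/-, and from 8.18 to 8.59 with a median of 8.40 in NOD. The groups overlapped throughout, and the difference was -0.05 (95% interval -0.27 to 0.17, adjusted p = 0.897 in limma). Without 1 array it ran from -0.09 (without NOD replicate 6) to -0.01 (without NOD.Drak2-/- replicate 7 or NOD replicate 5), with -0.08 without NOD.Drak2-/- replicate 4 and -0.02 without NOD replicate 3. Its sign turned to 0.02 when each array was centred on its median, which moves all differences up by 0.07. B cells also carry Il4ra and Il21r. Of 11 measured B cell markers only Cd79b was brighter than the background rows, with 6.37 in NOD.Drak2-/- and 5.89 in NOD (adjusted p = 0.436 in limma). On 6 of 6 NOD.Drak2-/- arrays Cd79b lay above its NOD mean (unadjusted p = 0.0021 in limma). Markers in the background range went both ways: Blk (-0.30) and Pax5 (-0.54) had negative differences, and Cd22 (0.41) and Cd79a (0.08) positive ones. The mean of the 11 ran from 4.75 to 5.44 in NOD.Drak2-/- and from 4.81 to 5.17 in NOD, and with it as a covariate the Il4ra difference was 0.19. That mean rests mostly on markers in the background range and so cannot measure B cell content. The part of B cells in the Il4ra and Il21r differences was not tested.

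The IL-6 family is represented by the chains Il6ra, which binds IL-6, Il27ra, which binds IL-27, and Il6st, the signalling chain gp130 that both use. Il6ra ran from 10.35 to 10.87 with a median of 10.72 in NOD.Drak2-/- and from 10.48 to 10.71 with a median of 10.56 in NOD. Replicate 5 was the lowest of all 12 arrays and 3 other NOD.Drak2-/- arrays lay above every NOD array. The difference was 0.09 (95% interval -0.14 to 0.32, adjusted p = 0.802 in limma). It was 0.16 without NOD.Drak2-/- replicate 5 and 0.05 without NOD.Drak2-/- replicate 4.

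Il6st and Il27ra had small differences in mean, and in NOD.Drak2-/- each split into a low and a high set of the same arrays. Il27ra had 8.57, 8.63, 8.96, 8.85, 8.60 and 8.92 in NOD.Drak2-/- replicates 1, 2, 3, 4, 5 and 7, against 8.75, 8.77, 8.83, 8.73, 8.78 and 8.79 in NOD replicates 1 to 6. Replicates 1, 2 and 5 of NOD.Drak2-/- lay below every NOD array and replicates 3, 4 and 7 above every one, so that 0 of 6 fell inside the NOD range. The difference in mean was -0.02 (95% interval -0.24 to 0.20, adjusted p = 0.957 in limma). The SD was 0.17 in NOD.Drak2-/- and 0.03 in NOD, a ratio of 5.31. The median of that ratio over the 8128 genes brighter than background was 1.07, and 99.8% of them had a smaller one.

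Il6st had 10.26, 10.19, 10.72, 10.56, 10.29 and 10.61 in NOD.Drak2-/- replicates 1, 2, 3, 4, 5 and 7, against 10.66, 10.64, 10.59, 10.55, 10.65 and 10.40 in NOD replicates 1 to 6. Again replicates 1, 2 and 5 were the low ones, below every NOD array, while replicates 4 and 7 lay within the NOD range and replicate 3 above it. The difference was -0.14 (95% interval -0.39 to 0.10, adjusted p = 0.704 in limma), and the SD ratio was 2.20. Without NOD.Drak2-/- replicate 2 the difference was -0.09. Because the NOD.Drak2-/- arrays form these separate sets, no correlation of the pair over arrays is given.

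The same 3 arrays stood apart in the hybridization controls, labelled standards that are added to the sample before the array is incubated. Their mean over 9 rows ran from 10.24 to 10.71 in NOD.Drak2-/- replicates 1, 2 and 5, from 8.95 to 9.87 in replicates 3, 4 and 7, and from 9.12 to 9.72 in NOD. Among genes brighter than background, 14.3% had replicates 1, 2 and 5 all below replicates 3, 4 and 7, and 11.4% had them all above. Of the receptors 3 were below in this way, Il6st, Il27ra and Il18r1, and 0 above. With the hybridization controls as a covariate the Il6st difference was -0.01 and that of Il27ra 0.07. Without those 3 arrays they were 0.05 and 0.13, so the sign of both turned. Both settings were chosen after the data had been seen.

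**Figure D2:**
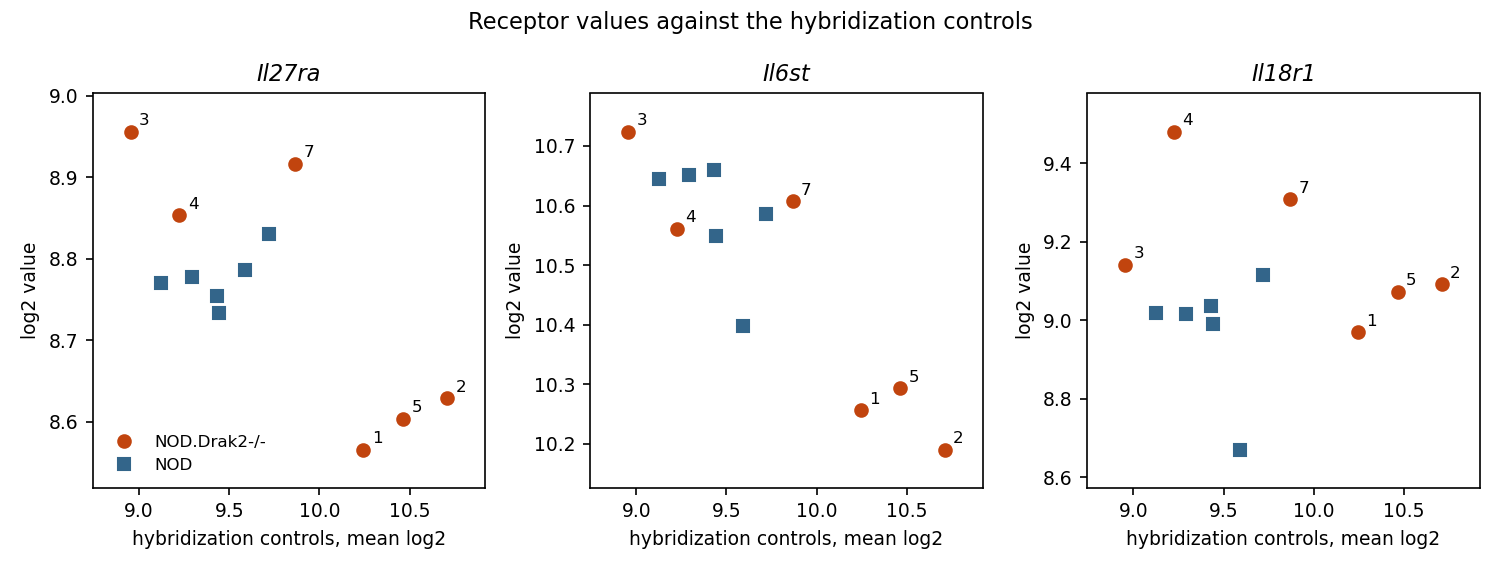
Log2 value of Il27ra, Il6st and Il18r1 (vertical axes) against the mean log2 value of the hybridization controls (horizontal axes) on each of the 12 arrays. Circles are NOD.Drak2-/- arrays with their replicate number and squares are NOD arrays. Replicates 1, 2 and 5, with controls from 10.24 to 10.71, hold the 3 lowest NOD.Drak2-/- values in each panel.

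Il10ra encodes the ligand-binding chain of the IL-10 receptor, through which Tregs and other leukocytes respond to that anti-inflammatory cytokine. It had 7.84, 8.04, 7.82, 7.96, 8.05 and 7.94 in NOD.Drak2-/- replicates 1, 2, 3, 4, 5 and 7, against 7.44, 7.65, 7.35, 7.74, 7.43 and 7.84 in NOD replicates 1 to 6. The groups overlapped at NOD replicate 6 alone, which lay just above NOD.Drak2-/- replicates 1 and 3. The mean was 7.94 ± 0.10 in NOD.Drak2-/- and 7.58 ± 0.20 in NOD (SD, n = 6 each). The difference was 0.36 (95% interval 0.13 to 0.60), or 1.29-fold, with an adjusted p of 0.469 in limma. The exact permutation test gave p = 0.00649. Il10rb, the partner chain shared with other cytokines, had a difference of -0.03 (adjusted p = 0.955 in limma).

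Il12rb1 encodes the chain that the IL-12 and IL-23 receptors share. It had 6.75, 7.19, 6.95, 6.83, 6.70 and 7.05 in NOD.Drak2-/- replicates 1, 2, 3, 4, 5 and 7, against 6.44, 5.97, 6.29, 6.81, 6.38 and 6.95 in NOD replicates 1 to 6. NOD replicates 4 and 6 lay inside the NOD.Drak2-/- range and the other 4 NOD arrays below it. The mean was 6.91 ± 0.19 in NOD.Drak2-/- and 6.47 ± 0.36 in NOD (SD, n = 6 each). The difference was 0.44 (95% interval 0.11 to 0.77), or 1.35-fold, and the adjusted p in limma was 0.479. The exact permutation p was 0.0281. It was the receptor nearest to background, above its array's brightest background row on 11 of 12 arrays.

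The specific partners of Il12rb1 were in the background range by their mean over all 12 arrays, though not on every array. Il23r, the IL-23 binding chain, exceeded its array's brightest background row on 3 of 12 arrays. It averaged 5.93 ± 0.40 in NOD.Drak2-/- and 5.15 ± 0.45 in NOD (SD, n = 6 each). Its difference was 0.79, with an adjusted p of 0.436 in limma. Il12rb2, which completes the IL-12 receptor, exceeded its array's brightest background row on 4 of 12 arrays. It averaged 5.79 in NOD.Drak2-/- and 5.70 in NOD, with a difference of 0.08 (adjusted p = 0.912 in limma).

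Il18r1 encodes the IL-18 binding chain, used by T helper 1 cells and by tissue Tregs. It had 8.97, 9.09, 9.14, 9.48, 9.07 and 9.31 in NOD.Drak2-/- replicates 1, 2, 3, 4, 5 and 7, against 9.04, 9.02, 9.12, 8.99, 9.02 and 8.67 in NOD replicates 1 to 6. Replicates 3, 4 and 7 of NOD.Drak2-/- lay above every NOD array, and NOD replicate 6 was lower than the rest. The difference was 0.20 (95% interval -0.04 to 0.45, adjusted p = 0.593 in limma), and the exact permutation test gave p = 0.0541. Without NOD replicate 6 the difference was 0.14, and without NOD.Drak2-/- replicates 1, 2 and 5 it was 0.34. Il18r1 lies on chromosome 1 between Il1rl1 and Il18rap, with 0 genes between each pair. Between it and Stk17b on that chromosome lie 162 genes, 44 of them measured. Its partner chain Il18rap was in the background range in both genotypes (5.38 in NOD.Drak2-/- and 5.21 in NOD).

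Natural killer and innate lymphoid cells also carry the IL-12 and IL-18 receptors. Of 6 of their markers measured, 2 were brighter than background, Eomes and Klrb1b, and Ncr1, Klrb1c, Klrk1 and Tyrobp were not. Eomes, a factor of natural killer and memory T cells, averaged 6.26 ± 0.45 in NOD.Drak2-/- and 5.84 ± 0.22 in NOD (SD, n = 6 each), and 4 NOD.Drak2-/- arrays lay above all NOD arrays. Its difference was 0.42, with an unadjusted p of 0.0373 and an adjusted p of 0.517 in limma. Klrb1b had a difference of -0.17 (adjusted p = 0.864 in limma). The mean of the 6 markers ran from 4.26 to 4.72 in NOD.Drak2-/- and from 4.12 to 4.59 in NOD, and their part in the Il12rb1 and Il18r1 differences was not tested.

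**Figure D3:**
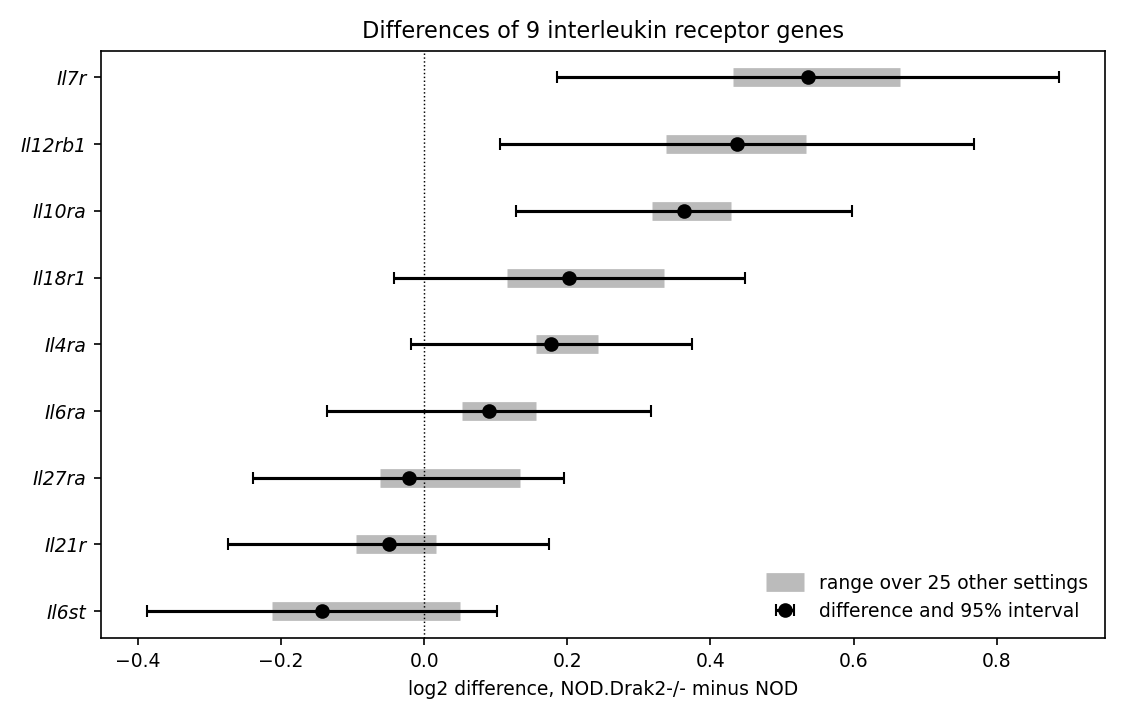
Log2 difference of NOD.Drak2-/- minus NOD for the 9 receptors (horizontal axis), as points with 95% intervals from limma, ordered by size. Grey bars span the differences under 25 other settings. The intervals and bars of Il7r, Il12rb1 and Il10ra lie to the right of 0, and the bars of Il27ra, Il21r and Il6st cross it.

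The other parts of these pathways were read from 6 lists. Over all 6, 0 members passed the threshold in limma over all genes. Of 9 measured partner chains 1 was at an unadjusted p under 0.05, Il23r with the positive difference above, beside 9.43% of all genes. The count was 0 with dim genes left out. The median difference was -0.01, and 0.06 with median centring, which moves all differences up by 0.07. Only Il10rb and Crlf2, the TSLP receptor partner of Il7r, were brighter than background (Crlf2 difference -0.01, adjusted p = 0.982). The common gamma chain gene Il2rg had no named row and was not analysed here. Of 14 measured ligands, 11 were in the background range, and 1 was at that unadjusted level, Il4, with 3.54 in NOD.Drak2-/- and 3.09 in NOD. The ligand count was 2 with median centring and 0 with dim genes left out. Of all genes, 9.43% were at that level in the fit as reported, and with centring 7.30% were positive and 2.72% negative. Il10, which Tregs can secrete, had a difference of 0.05 (adjusted p = 0.96 in limma).

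The signal transducers, with 13 measured and all brighter than background, had a median difference of 0.08. At an unadjusted p under 0.05 there were 1 positive and 1 negative member of 13, beside 9.43% of all genes. Traf6, the ubiquitin ligase that carries IL-1 family signals, averaged 7.43 ± 0.07 in NOD.Drak2-/- and 7.77 ± 0.16 in NOD (SD, n = 6 each). It was below the NOD mean on 6 of 6 NOD.Drak2-/- arrays, with a difference of -0.34 and an adjusted p of 0.469 in limma. Tyk2, the Janus kinase bound by Il12rb1 and by the IL-10 receptor, averaged 7.70 ± 0.30 in NOD.Drak2-/- and 7.24 ± 0.45 in NOD (SD, n = 6 each). Its difference was 0.46, with an adjusted p of 0.512 in limma. Stat3, which IL-6, IL-10, IL-21 and IL-27 all activate, had a difference of 0.08 (adjusted p = 0.81), and Stat6, used by IL-4, had 0.11 (adjusted p = 0.816). Jak3 had no named row and was not analysed here.

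The next list holds genes that restrain or shed the receptors. Of 17 measured members, 0 were at an unadjusted p under 0.05, beside 9.43% of all genes. Differences were positive for 14 of the 17, beside 8956 of 19505 over all genes and 4499 of the 8128 brighter than background. The list median was 0.06, beside -0.02 over all genes and 0.03 over the brighter ones. The 2 smallest p-values were those of Socs7 (0.44, adjusted p = 0.575), which exceeded its array's brightest background row on 6 of 12 arrays, and the phosphatase gene Ptpn11 (0.17, adjusted p = 0.643). Of the STAT-induced inhibitors, Cish had 0.13, and Socs3, in the background range, had -0.00. The protease genes Adam10 and Adam17, which shed IL-6 receptor from the surface, had 0.06 and -0.00.

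Among 18 regulators and targets of these receptors, 2 were positive and 1 negative at an unadjusted p under 0.05, beside 9.43% of all genes, and the median was 0.07. With median centring, which moves all differences up by 0.07, the count was 5 and the median 0.14. In that setting 7.30% of all genes were positive and 2.72% negative at that level. Nfil3, a factor that IL-4 and other cytokines induce, averaged 7.91 ± 0.45 in NOD.Drak2-/- and 8.53 ± 0.25 in NOD (SD, n = 6 each), a difference of -0.61 with an adjusted p of 0.469 in limma. Runx3, a T cell factor of the Runt family, had a difference of 0.52 (adjusted p = 0.483) and Bcl3, an atypical IkB protein gene, 0.51 (adjusted p = 0.512). Foxo1, which activates Il7r in T cells, had 9.81 ± 0.11 in NOD.Drak2-/- and 9.77 ± 0.13 in NOD (SD, n = 6 each). Gfi1, which represses Il7r, was in the background range in both genotypes (5.47 in NOD.Drak2-/- and 5.56 in NOD).

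Since no row was named for Il1rl1, genes that accompany ST2 in tissue Tregs were read beside it. Of 8 measured members 6 were brighter than background, and the median difference was -0.04. Of the 8, 1 was at an unadjusted p under 0.05, beside 9.43% of all genes. This was Batf, a factor that these cells need, with 9.51 ± 0.33 in NOD.Drak2-/- and 9.07 ± 0.31 in NOD (SD, n = 6 each). Its difference was 0.44, with an adjusted p of 0.485 in limma. Klrg1 (-0.11), Rora (-0.10), Ccr8 (-0.10) and Irf4 (0.06) had smaller ones. Gata3 and Areg were not analysed here.

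**Figure D4:**
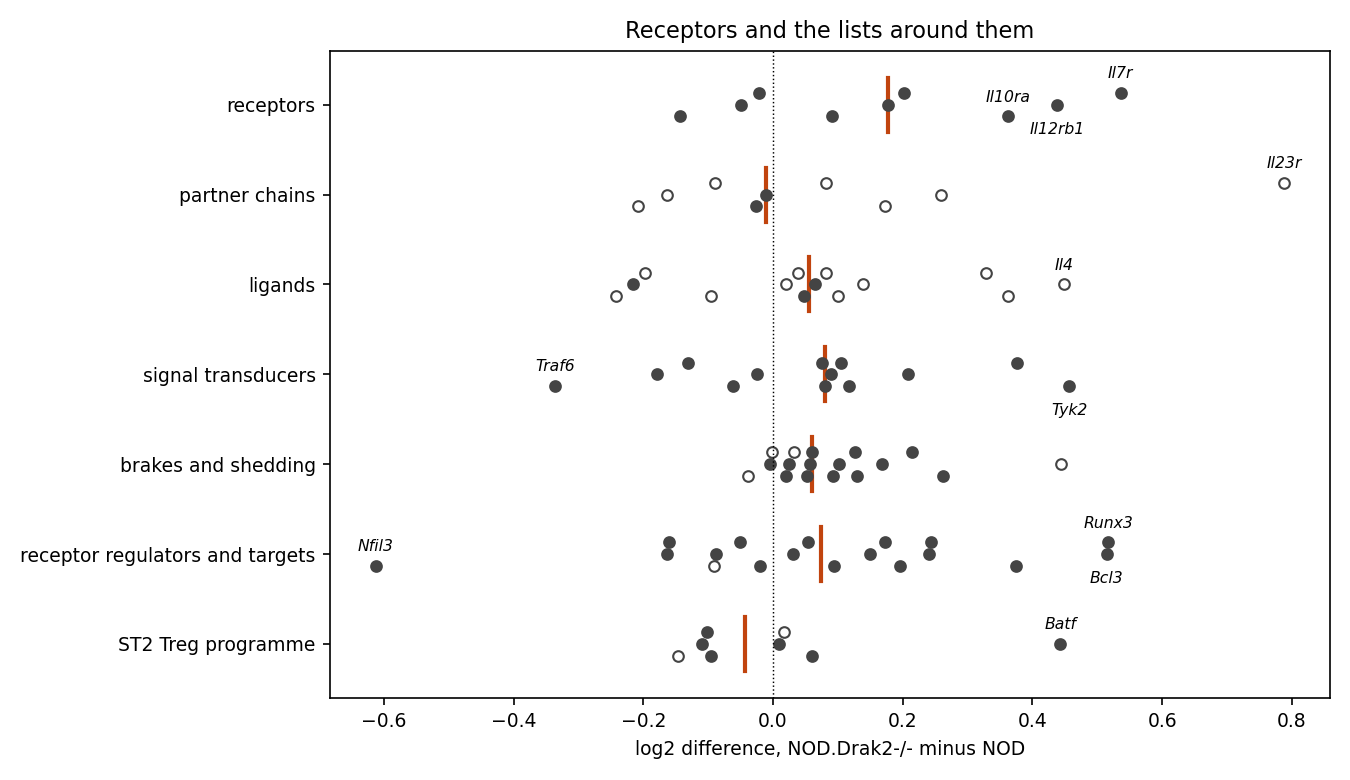
Log2 difference of NOD.Drak2-/- minus NOD (horizontal axis) for each measured gene of the receptors and of 6 lists around them (rows). Filled points are genes brighter than the background rows on average, open points are the others, vertical bars are list medians, and genes at an unadjusted limma p under 0.05 are named. Il23r, an open point, has the largest positive difference of the named genes (0.79) and Nfil3 the largest negative one (-0.61).

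For each receptor the most alike genes were those with the highest Pearson r over the 12 arrays, after each genotype was centred on its own mean, among the 8127 other genes brighter than background. These r are descriptions, since the genes share arrays and scale. Centring leaves the split of NOD.Drak2-/- replicates 1, 2 and 5 from replicates 3, 4 and 7 in place. In 14.3% of genes brighter than background replicates 1, 2 and 5 were all lower, as in Il6st, Il27ra and Il18r1. The r of these 3 receptors therefore include that split and are not particular to the genes named. For Il7r they were Bloc1s4 (0.92) and Slc22a21 (0.89), for Il10ra Cbx8 (0.89) and Thap3 (0.89), and for Il12rb1 the histone gene H4c18 (0.96) and the tubulin gene Tubb5 (0.94). For Il6st they were Phf14 and Micos10 (0.97 each), for Il27ra Pigo (0.95) and Ddx18 (0.93), and for Il18r1 Slc14a1 (0.94) and Mtmr6 (0.93). For Il4ra they were Kctd9 (0.85) and Htt (0.83), for Il21r Ms4a6b (0.92) and Ubac2 (0.87), and for Il6ra Vapa (0.89) and Spint2 (0.85).

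The arrays and labels were checked as follows. Stk17b ran from 9.97 to 10.36 in NOD.Drak2-/- and from 10.21 to 10.80 in NOD. The difference was -0.27 (unadjusted p = 0.0392, adjusted p = 0.517 in limma). Stk17b lay below its NOD mean on 6 of 6 NOD.Drak2-/- arrays, but 5 of them were within the NOD range. Its signal therefore does not check the labels, and the position of its probes relative to the deletion is not known here. Of 13 measured Treg markers, 12 were brighter than background, with list means from 9.35 to 9.47 in NOD.Drak2-/- and from 9.25 to 9.47 in NOD. Il2ra, the gene of the CD25 used in the gate, was in the background range (5.00 in NOD.Drak2-/- and 4.82 in NOD), and Foxp3 was not analysed here. All 13 measured myeloid and dendritic markers were in that range. So were 5 of 6 basophil and mast cell markers, while Kit was above it (8.45 in NOD.Drak2-/- and 8.56 in NOD). Cd8a was also in it, while Cd8b1 was above it (7.45 in NOD.Drak2-/- and 7.27 in NOD).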

How the data were processed

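RNA of sorted Tregs (125 ng per mouse) was labelled and hybridized to whole-transcript arrays, per the labels' protocols. The authors deposited log2 values, and the submitters' processing notes list RMA and oligo. No version or genome build is given in the sources. The table held 29129 rows, 19572 of them with 1 symbol in the platform annotation, and the brightest row per gene by mean left 19505 genes. No receptor had a further row. Background was the brightest of 23 antigenomic rows, with a mean of 5.87, and 58.3% of genes were at or below it. Array values carry no counts or depth, so the number of arrays limits the precision. Array medians over genes ran from 5.18 to 5.34.

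The genotypes were compared in R 4.3.3 with limma 3.58.1 (lmFit, then eBayes, with no covariate), using Benjamini-Hochberg adjustment over 19505 genes and a threshold of 0.05. Every adjusted p is from that fit unless another is named. Single genes were also compared by two-sided exact permutation over all 924 regroupings, whose smallest p is 0.00216. Intervals are 95% intervals of limma. The fit was tested on simulated data.

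The receptors, lists and rules were chosen with earlier results of these data known. Named genes were all receptors, list members at an unadjusted p under 0.05 or otherwise the 2 smallest p-values, 2 most alike genes per receptor, and Stk17b; other list genes and markers were named after their values were seen. Alternatives were median centring, leaving out dim genes, an ordinary model, a trended robust prior, array weights, each array left out, a replicate block and marker covariates, and, after the data were seen, array-control covariates and 3 arrays left out.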

Additional observations from a re-analysis of the deposited data

Results flagged for a closer look

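Il18r1 in NOD replicate 6 had a log2 value of 8.67, farther from the other 5 NOD arrays (8.99 to 9.12) than a group of 6 usually allows. The gap to its nearest neighbour was 0.719 of the range of the group, above Dixon's critical value for 6 samples. It was the only 1 of 18 groups of receptor values (9 genes in each genotype) to be singled out in this way, and chance singles out about 1 in 20. Without that array the Il18r1 difference was 0.14, against 0.20 with it.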

How the results depend on the processing

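Under 25 other settings 0 of 9 receptors passed the adjusted threshold, and Il7r, Il10ra and Il12rb1 were at an unadjusted limma p under 0.05 in all 25. Their differences ran from 0.43 to 0.66, from 0.32 to 0.43 and from 0.34 to 0.53, and no receptor had an adjusted p below 0.268 in any of them. The count of receptors at that level was 3 to 4 when 1 array was left out. It was 5 with median centring (Il4ra and Il18r1 joining), where 7.30% of genes were positive and 2.72% negative at that level, against 3.74% and 5.69% without it. Genes past the threshold, 4 as reported, were 1 to 2 without any 1 array, 1 with the B cell or the myeloid covariate, 7 with the heat shock covariate and 0 with the ordinary model (1722 at an unadjusted p under 0.05). They were 8 with the background GC covariate, 2 with the hybridization covariate and 0 without the 3 arrays with the brightest hybridization controls (1220 at an unadjusted p under 0.05), all chosen after seeing the data. The sign turned for Il21r with median centring (0.016). It turned for Il27ra with median centring (0.044), array weights (0.018), the hybridization covariate (0.068) and without NOD.Drak2-/- replicate 1, 2 or 5 (leaving out any 1 array gave -0.062 to 0.016), and, without all 3, for Il27ra (0.133) and Il6st (0.049). The cause was not tested. Replicates 1 to 5 carry the same numbers in both genotypes, and the labels give no pairing. Deviations of same-numbered arrays correlated from -0.29 to 0.15, and 1 of 5 NOD.Drak2-/- arrays correlated best with its own number. So few pairs cannot settle whether same-numbered arrays share a batch. In limma with the replicate block 0 genes passed (1519 at an unadjusted p under 0.05) and 3 receptors were at an unadjusted p under 0.05. Using another row of a gene gave no value, since no receptor had one.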

Other observations

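Within the NOD arrays, Il7r tended to be low where Il12rb1 and Il10ra were high. NOD replicates 4 and 6 had the lowest Il7r (8.11 and 8.35) and the highest Il12rb1 (6.81 and 6.95) and Il10ra (7.74 and 7.84), and replicate 3 had the highest Il7r (9.27) and the lowest Il10ra (7.35). For Il7r and Il12rb1 Pearson's r was -0.75 (exact permutation p = 0.0806, 0.264 adjusted) and Spearman's rho -0.89 (exact p = 0.0333, 0.40 adjusted) over 6 arrays. Without the 2 arrays farthest from the median of Il7r, r was -0.92. For Il7r and Il10ra r was -0.66 (exact p = 0.16, 0.366 adjusted) and rho -0.77 (exact p = 0.103, 0.445 adjusted), and -0.28 without the 2 farthest arrays. In the 6 NOD.Drak2-/- arrays, where all 3 receptors averaged higher, r was -0.09 for Il7r and Il12rb1 (exact p = 0.86, 0.924 adjusted) with a rho of 0.03 (exact p = 1), and -0.66 for Il7r and Il10ra (exact p = 0.168, 0.924 adjusted) with a rho of -0.66 (exact p = 0.175, 0.764 adjusted). Without the 2 farthest arrays these r were -0.68 and -0.94, so the genotypes are not shown to differ in either pair. These pairs were picked after their values were seen among 36 pairs of receptors per genotype, and no pair passed after Benjamini-Hochberg adjustment over the 36.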
